A study of Mus musculus with 95 samples.

Results

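The samples described here are the nucleus accumbens punches of ethanol-naive mice from which both an astrocyte ribosome library and a whole-tissue library were counted. The pairs were found by the mouse code in the labels, which gave 15 of the series' 49 mice and 30 of its 95 libraries. All of these mice, on a B6;FVB background, carried the transgene Tg(Aldh1l1-EGFP/Rpl10a)JD130Htz, in which the ribosomal protein Rpl10a fused to EGFP is made under the control of the astrocyte gene Aldh1l1, and none of them received ethanol. Translating ribosome affinity purification (TRAP) of the tagged ribosomes gave the immunoprecipitated library of a mouse (IP), and RNA set aside before the purification gave its input. The 8 female and 7 male mice came from batch J (4 mice), batch K (4 mice) and batch L (7 mice), and each pair came from 1 animal. The labels used here state no ages. The transgene tags every cell in which the Aldh1l1 sequence is active, so the IP was defined by that promoter and not by a sort of cells.

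Astrocytes take up glutamate, GABA and potassium from the space around synapses, share solutes through gap junctions, store glycogen and export lipoproteins. A TRAP library holds the mRNA bound to tagged ribosomes, together with RNA carried through the purification, while the input holds the RNA of neurons, glia and vessels of the same punch. The nucleus accumbens is the ventral part of the striatum, whose main neurons are the medium spiny neurons, GABAergic cells that carry dopamine receptors. The comparison of the 2 fractions asked which transcripts accumbens astrocytes translate in the absence of ethanol.

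IP libraries held 14871252 to 24434889 counts and input libraries 12803108 to 23948193, and 20443 to 22431 features had a count in an IP library against 21014 to 24829 in an input library. The share of counts from the mitochondrial genome was 0.486% to 2.17% in the IP and 6.88% to 16.2% in the input, so the fractions did not overlap. By batch, input shares were 6.88% to 9.14% in L and 11.7% to 16.2% in J and K. IP shares were 0.486% to 0.834% in L and 0.943% to 2.17% in J and K. By the counts of 4 Y-linked genes, 30 of 30 libraries fitted the labelled sex. Levels are given as CPM, counts scaled to library size after TMM normalisation, as the lowest, the median and the highest of 15 mice, and differences as the log2 fold change of IP over input with its standard error.

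Because Aldh1l1 sequence decides which cells carry the tag, the 250 bases before its RefSeq start are shown with those of the marker genes Slc1a3 and Gja1 (GRCm38.p6). The Aldh1l1 stretch lies at chr6:90550543-90550792 on the plus strand, that of Slc1a3 at chr15:8710808-8711057 on the minus strand and that of Gja1 at chr10:56377050-56377299 on the plus strand. The RefSeq start used for Aldh1l1 lies inside the longer interval that the gene annotation gives for this gene (chr6:90486427-90600203). Capitals mark the CCAAT box (CCAAT, or ATTGG on the other strand) and the SOX core (ACAAT, or ATTGT on the other strand), 2 motifs that share no match here.
Aldh1l1: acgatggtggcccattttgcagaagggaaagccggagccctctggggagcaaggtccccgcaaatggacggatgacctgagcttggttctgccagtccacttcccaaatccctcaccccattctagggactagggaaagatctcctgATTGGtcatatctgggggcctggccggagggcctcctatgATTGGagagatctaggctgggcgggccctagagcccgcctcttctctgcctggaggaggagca
Slc1a3: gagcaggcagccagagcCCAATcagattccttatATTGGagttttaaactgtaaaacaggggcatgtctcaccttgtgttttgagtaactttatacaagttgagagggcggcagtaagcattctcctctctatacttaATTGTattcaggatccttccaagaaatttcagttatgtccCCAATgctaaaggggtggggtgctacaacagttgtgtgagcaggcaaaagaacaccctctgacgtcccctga
Gja1: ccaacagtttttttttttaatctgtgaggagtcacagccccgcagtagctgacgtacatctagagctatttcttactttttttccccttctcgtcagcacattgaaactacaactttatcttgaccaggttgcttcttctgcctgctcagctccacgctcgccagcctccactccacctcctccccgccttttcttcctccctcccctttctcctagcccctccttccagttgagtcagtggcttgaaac
The CCAAT box occurred 2 times before Aldh1l1, 3 times before Slc1a3 and 0 times before Gja1, and the SOX core 1 time, before Slc1a3. The half-site of NFI factors (TTGGC or GCCAA), searched on both strands, was in none of the 3 stretches. Over the same length before 11319 tested genes, 36.1% of stretches held the CCAAT box, 18% the SOX core and 45.3% the NFI half-site. Among genes more than 2-fold higher in the IP the shares were 37.7%, 18.8% and 47.6% of 1445 stretches, and among those more than 2-fold lower 31.9%, 18.9% and 43.1% of 692.

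The 4 defining astrocyte markers were higher in the IP of every mouse, with no overlap between the fractions. Aldh1l1 (10-formyltetrahydrofolate dehydrogenase) was at 112, 125 and 168 CPM in the IP and at 9.14, 14.2 and 22.4 CPM in the input, a log2 fold change of 3.17 ± 0.08 (adjusted p = 1.2e-24). Slc1a3, the glutamate transporter GLAST, was at 2778, 3155 and 3718 CPM in the IP and at 253, 335 and 442 CPM in the input (3.25 ± 0.05, adjusted p = 4.5e-28). The lowest IP library lay far above the highest input library for both genes. Gja1, the gap junction protein connexin 43, was at 815, 943 and 1135 CPM in the IP against 60.9, 90.1 and 117 CPM in the input (3.42 ± 0.06). Aqp4, the water channel of astrocyte endfeet, was at 367, 443 and 571 CPM against 40.8, 46.5 and 61.8 CPM (3.21 ± 0.06). Rpl10a, the gene whose product is tagged, was counted at 131, 187 and 241 CPM in the IP and at 94.7, 170 and 291 CPM in the input, so its fractions overlapped (0.20 ± 0.08, adjusted p = 0.025, higher in 11 of 15 mice), and in batch K alone its value was -0.14. Snap25, a synaptic protein of neurons, was at 455, 616 and 772 CPM in the IP and at 1058, 1570 and 2247 CPM in the input (-1.34 ± 0.05, adjusted p = 1.8e-19), lower in the IP of all 15 mice without being absent from it.

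**Figure D1:**
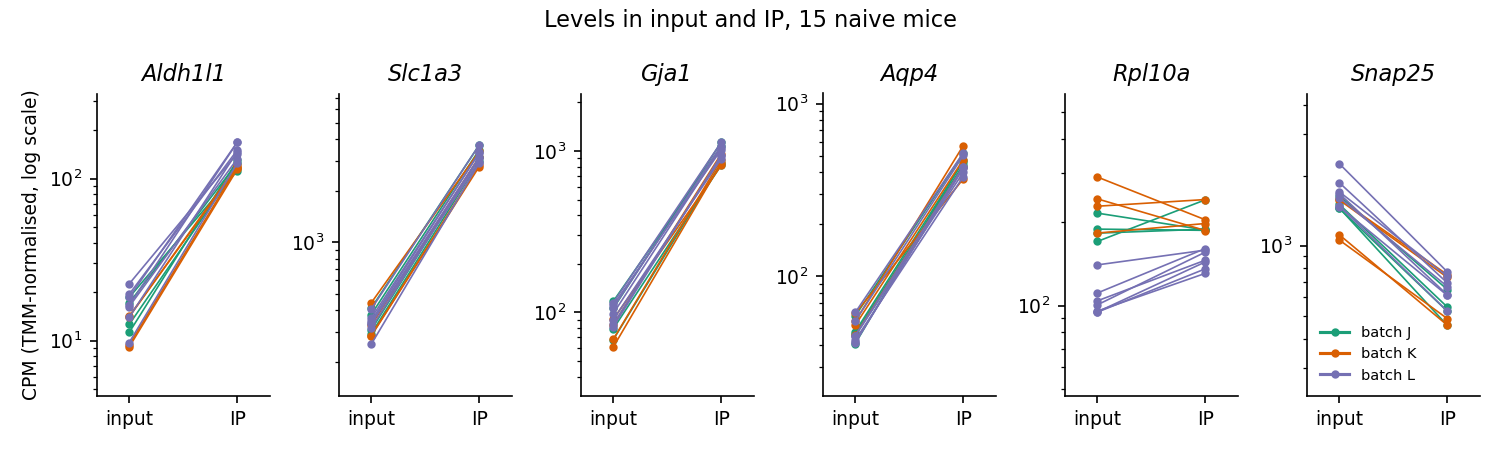
CPM (log axis) of 6 genes in the input and the IP of each of 15 naive mice, with a line joining the 2 libraries of a mouse and colours for the batches. Each of the 4 markers is higher in the IP of all 15 mice, Rpl10a changes little and Snap25 is lower in all 15.

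Across the genome, 12187 of 16623 tested genes (73.3%) differed between IP and input, 5707 higher (34.3%) and 6480 lower (39%). A test against a 2-fold change called 3042 genes (18.3%), of which 1977 were more than 2-fold higher (11.9%) and 1065 more than 2-fold lower (6.41%). Of these, 1821 were higher and 909 were lower in all 15 mice. On the enriched side 1029 genes had a log2 fold change of at least 2 and 205 of at least 3, against 100 genes at -2 or less, 16 of which were features of the mitochondrial genome. Genes more than 2-fold higher held 38.4% of the IP counts and 9.08% of the input counts, and those more than 2-fold lower held 5.42% and 25%. Scaling by library totals in place of TMM lowered the median log2 fold change of all genes from -0.07 to -0.26, changed the split among called genes to 4446 higher and 8124 lower, and that beyond 2-fold to 1655 and 1876. Small differences move with that choice: Rpl10a was at 0.02 under scaling by library totals and did not pass.

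All 23 astrocyte markers tested were more than 2-fold higher in the IP, with a median log2 fold change of 3.21 against -0.07 for all tested genes. They spanned 2.32 (Slc4a4, a bicarbonate cotransporter) to 3.49 (Gfap), and took 3.45% of the IP counts and 0.439% of the input counts. The mean over the list was between 2.92 and 3.35 in every mouse. Mice differed more in the level of some markers than in their enrichment, and in such bulk libraries a level that differs between mice cannot be assigned to the number of cells or to the RNA per cell. Gfap, the intermediate filament protein of astrocytes, ranged from 161 to 583 CPM in the IP (coefficient of variation 43.6%), yet its log2 ratio stayed between 3.11 and 3.87. Slc7a10, a carrier of serine and alanine, and Etnppl, a phospholyase, varied by 47% and 48.1% in the IP, where the median of the 23 markers was 17.4% and Slc1a3 varied by 9.19%.

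Markers of the other cells of the accumbens were lower in the IP, most of them by a similar amount. All 15 pan-neuronal markers were lower, 12 of them more than 2-fold, with a median of -1.24 and a range from -1.49 (Stmn2) to -0.48 (Map2). All 16 medium spiny neuron markers were lower (median -1.21), among them Penk, which encodes enkephalin (-1.30), the dopamine receptors Drd1 (-1.29) and Drd2 (-0.89), and Ppp1r1b, which encodes DARPP-32 (-0.96). The 10 striatal interneuron markers were lower too (median -1.34), from Pvalb (-1.94), Npy (-1.86) and Sst (-1.72) to Nos1 (-0.88). Of 13 oligodendrocyte markers 12 were lower, with Mbp at -1.52, while Cnp was slightly higher (0.19 ± 0.06, adjusted p = 0.0068), a call lost under scaling by library totals (0.00068). Microglial transcripts were lower in 17 of 18 cases (median -1.10), among them Tyrobp (-1.70), with Mrc1 at -0.72 not passing the test. The 5 blood genes, 4 of them globin genes that each have a near-identical relative, had a median of -1.56.

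Vascular, precursor and ventricular lists were more mixed. Of 13 endothelial markers 12 were lower (median -0.98), and Slc2a1, the glucose transporter GLUT1, was higher (0.84 ± 0.08, in 15 of 15 mice). Of 9 mural markers tested 7 were lower, while Pdgfrb, a growth factor receptor typical of pericytes, was at 17.2, 22.8 and 31.5 CPM in the IP and 2.84, 5.51 and 8.78 CPM in the input (2.14 ± 0.10, adjusted p = 1.8e-17). Oligodendrocyte precursor markers were lower in 9 of 10 cases with a smaller median of -0.57, and Cspg4 did not pass (0.01 ± 0.13). Among 7 ependymal markers, Rarres2 (1.82), Cfap126 (1.52) and Foxj1 (1.40) were more than 2-fold higher, and Foxj1 ranged from 0.298 to 10.1 CPM across the IP libraries. Dynlrb2 was higher by less (0.32), Tm4sf1 was lower (-0.73), and Tmem212 (0.22) and Ccdc153 (-0.0016) did not pass, which gave a median of 0.32. The choroid plexus list had 3 of 7 members above the count filter, of which Otx2, a homeobox factor, was higher (2.39) and Kl (-0.94) and Clic6 (-0.81) were lower. Ttr, the dominant transcript of choroid plexus, was not among the genes tested.

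**Figure D2:**
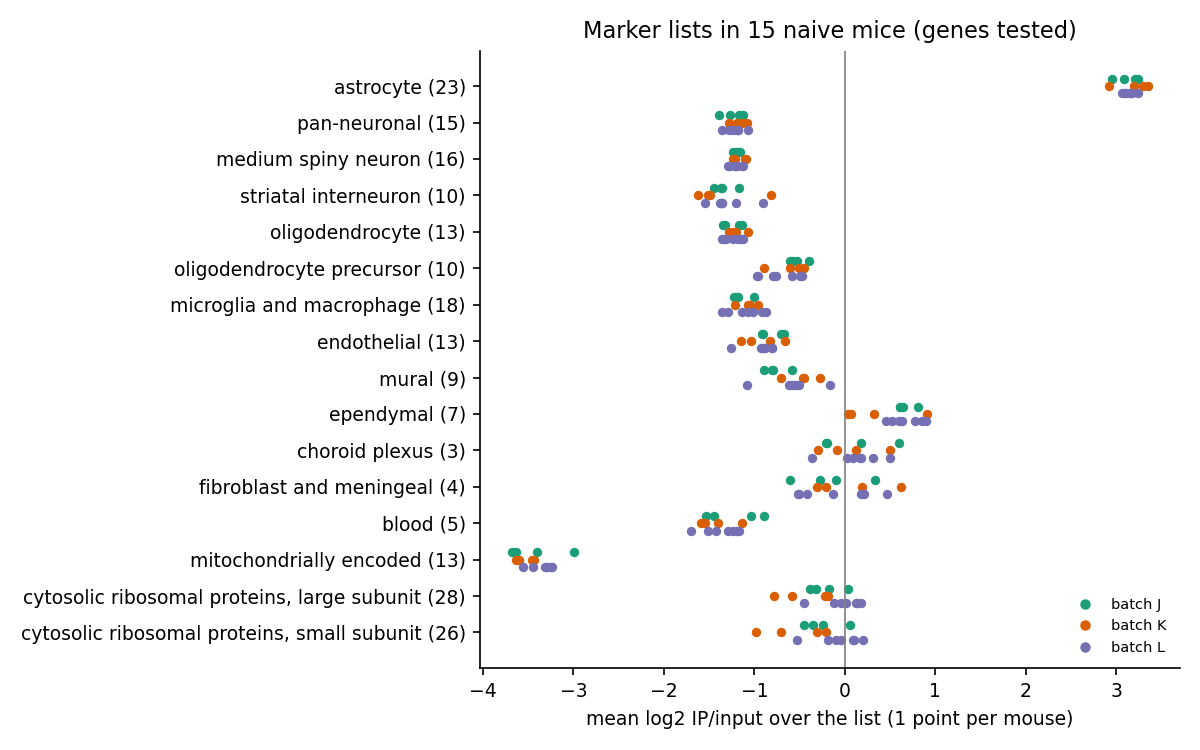
Mean log2 IP/input over the tested members of each marker list, with 1 point per mouse coloured by batch and the number of genes in brackets. Astrocyte markers lie between 2.92 and 3.35 in every mouse, mitochondrially encoded genes between -3.68 and -2.99, and the ribosomal protein lists spread around 0.

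By the size of the difference, the 12 most enriched nuclear protein-coding genes that met the naming rule (a gene symbol that is not a bare model number, called beyond 2-fold, at least 10 CPM in the higher fraction, higher in all 15 mice) were drawn from 1314. Slc39a12, a zinc importer, headed them at 138, 162 and 206 CPM in the IP and 6.27, 13.6 and 17.8 CPM in the input (3.65 ± 0.08, adjusted p = 1.8e-25). Sulfur and acyl metabolism were represented by Tst, the mitochondrial sulfurtransferase rhodanese (3.51), Papss2, which makes the sulfate donor PAPS (3.49), and Acot11, an acyl-CoA thioesterase (3.46). Fzd2, a Wnt receptor (3.46), Nr2e1, the orphan nuclear receptor Tlx (3.41), and Entpd2, an enzyme that breaks down extracellular ATP (3.44), were also among them. The rest were Gfap, Gja1, Dmp1, a secreted acidic phosphoprotein (3.56), Steap3, a metalloreductase of iron handling (3.46), and Klhdc7a (3.43). None of the 12 had IP and input levels that overlapped.

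At the other end, 629 nuclear protein-coding genes met the same rule in the opposite direction, and the mitochondrially encoded genes, which were left out of it, are described below. Gng13, a G protein gamma subunit, was at 1.04, 1.72 and 4.89 CPM in the IP and at 4.73, 9.43 and 17.6 CPM in the input (-2.25 ± 0.16). It was followed by Stk32c, a kinase (-2.23), the histone gene Hist3h2ba (-2.18), Cox6a2, a tissue-restricted subunit of cytochrome oxidase (-2.02), and Pvalb, the calcium buffer of fast-spiking interneurons (-1.94). Ppp1r14a (-1.91), Lst1 (-1.90), the retinoid-binding protein gene Crabp1 (-1.88), the cholecystokinin receptor gene Cckbr (-1.88), Lin7b (-1.86), Dazl (-1.86) and the neuropeptide gene Npy (-1.86) completed the 12.

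Abundance in the IP was compared between genes per kilobase of exon. Cst3, the protease inhibitor cystatin C, was the most abundant nuclear protein-coding transcript (25392 CPM per kb in the IP and 4561 in the input). Next came Apoe, the main apolipoprotein of the brain (15010 and 1639), Cpe, carboxypeptidase E (5920 and 818), and Dbi, the acyl-CoA and diazepam binding protein (5518 and 947). The metallothioneins Mt3 (4340) and Mt1 (4199), S100a1 (3927), Gstm1 (2642), Aldoc (2327), Ckb (2070), Ldhb (1987), Sparcl1 (1941) and Gstm5 (1745) were also among the 15 highest. Of the 15, 13 were more than 2-fold higher in the IP, and Cox8a (3095) and Cox6b1 (1778), subunits of cytochrome oxidase, were not. Mitochondrially encoded genes were left out of this ranking. Among the nuclear protein-coding genes Cst3 ranked at position 1 in the input as well, whereas Sparcl1 ranked at 269 and Aldoc at 206 there. The 15 genes took 12.3% of the IP counts and 2.44% of the input counts.

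Genes of transmitter uptake and turnover did not all go the same way. Of 16 tested, 11 were higher, all more than 2-fold, and 5 were lower (median 2.08). Slc1a2, the main glutamate transporter, was at 8789, 10750 and 14317 CPM in the IP and 928, 1250 and 1748 CPM in the input (3.11 ± 0.06). Glul, which turns glutamate into glutamine (3.26), Slc6a11, the GABA transporter GAT3 (3.25), and Slc38a3, a glutamine carrier (2.98), had differences of the size of the marker genes. The transaminases Got1 (-1.10) and Got2 (-1.01) and the carriers Slc38a5 (-1.14) and Slc6a13 (-1.09) were lower. Slc6a13 had a mean of 1.27 CPM in the IP.

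Of 16 genes of potassium, water and ion handling 14 were more than 2-fold higher (median 3.06). Among them Aqp4, Gja1, Gjb6, Mlc1, Atp1b2 and Slc4a4 are also astrocyte markers, so this count is not independent of the marker list. Kcnj10, the inward rectifier Kir4.1, was at 359, 417 and 528 CPM in the IP against 43.5, 53.5 and 73.2 CPM (3.01 ± 0.06), its partner Kcnj16 was at 3.20 and the connexin 30 gene Gjb6 at 3.11. The exceptions were Slc8a1, a sodium-calcium exchanger (-1.17), and Slc12a2, the chloride importer NKCC1 (-0.33).

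Most tested genes of amino acid metabolism were higher in the IP. Of 16 tested genes of serine, glycine and one-carbon metabolism 11 were higher (8 more than 2-fold, median 1.31). The glycine cleavage gene Gldc was at 75.4, 90.1 and 110 CPM against 6.03, 8.96 and 12.1 CPM in the input (3.29 ± 0.08), and the 3 genes of serine synthesis, Phgdh (2.98), Psph (2.53) and Psat1 (2.38), were higher together. Ftcd (-1.66) and Mthfd2 (-0.93), which act in folate metabolism, were lower. Of 14 genes that break down other amino acids 13 were higher (median 1.60), from Aass of lysine breakdown (3.40) and Prodh of proline breakdown (3.15) to Bckdhb (0.51). The pair of branched-chain aminotransferases differed in sign, with mitochondrial Bcat2 at 0.94 and cytosolic Bcat1 at -1.12.

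Glycogen and glycolytic genes included some of the largest differences and some of the clearest reversals. Pygb, a glycogen phosphorylase, was at 285, 362 and 488 CPM in the IP and 29.8, 42.2 and 63.8 CPM in the input (3.06 ± 0.06), and its muscle-type relative Pygm was at 2.35. Pdk4, which restrains pyruvate oxidation (3.34), and the aldolase Aldoc (3.30) were higher still. The monocarboxylate carriers that move lactate were ordered by member: Slc16a1 (MCT1) was higher (0.65 ± 0.09), Slc16a7 (MCT2, the neuronal form) was lower (-1.75 ± 0.15) and Slc16a3 (MCT4) was lower (-1.38 ± 0.18) at 0.208, 1.09 and 2.32 CPM in the IP. Slc2a3, the neuronal glucose transporter GLUT3, was lower as well (-1.23). In the list 15 of 21 were higher and 5 lower, with a median of 0.99.

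Genes of fatty acid transport and oxidation were enriched, with a median below that of the astrocyte markers (3.21). Of 21 tested genes 19 were more than 2-fold higher (median 2.57), which included each step from activation to the last thiolysis. Cpt1a, the gate of fatty acid entry into mitochondria, was at 53.3, 73.7 and 95.6 CPM against 5.9, 7.88 and 13.2 CPM (3.12 ± 0.09). Ppara, a lipid-sensing nuclear receptor (3.07), the dehydrogenases Acadl (3.04) and Hadh (2.86), and the fatty acid binding protein gene Fabp7 (2.92) were all higher. The 2 exceptions were Cpt1c, a form described in neurons (-0.55), and Fabp3, the heart-type binding protein gene (-1.63).

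Cholesterol synthesis moved less and more evenly. Of 22 tested genes 19 were higher, 7 of them more than 2-fold, and the median was 0.82. Sc5d (1.53), Insig1 (1.52), Idi1 (1.48) and Hmgcs1 (1.32) led the list. Fdps, which has near-identical copies in the genome, was counted at 0.116 to 1.31 CPM in the IP and its value is uncertain. Lipoprotein genes were divided: Lcat (3.34), Apoe (3.20), Clu (3.07), Apoc1 (2.94) and the sterol exporter Abca1 (2.50) were higher, whereas Apod (-1.30), Scarb1 (-1.16), Abcg1 (-1.08) and Cyp46a1, the cholesterol hydroxylase of neurons (-0.98), were lower.

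In redox and metal handling, 13 of 20 antioxidant genes were higher (10 more than 2-fold, median 1.29). Mgst1 (3.21), Prdx6 (3.09), Gstm1 (3.02), the stress-response factor gene Nfe2l2 (2.66) and catalase, Cat (2.33), were among them, while Gpx1 was lower (-0.84) and Sod1 did not pass (0.01). The 3 metallothioneins were higher, with Mt2 at 3.07, Mt1 at 2.62 and Mt3 at 2.30. In the whole list of metallothionein, iron and copper genes 6 of 13 were higher and 5 lower (median -0.14). These counts were not far from the shares of all tested genes (34.3% higher and 39% lower). Steap3 and the transferrin receptor gene Tfrc (0.69) were the iron genes that were higher. Fth1, the ferritin heavy chain, was at 2007, 2756 and 4004 CPM in the IP against 3471, 5756 and 10037 CPM (-0.97 ± 0.07), the transferrin gene Trf was at -1.46, and the ceruloplasmin gene Cp (-0.88), the iron exporter gene Slc40a1 (-0.71) and the ferritin light chain gene Ftl1 (-0.39) were lower.

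The enzymes of ethanol and acetaldehyde metabolism were measured here in animals that had received none. Of 9 tested genes 8 were higher, 6 of them more than 2-fold, with a median of 1.60. Acss1, which activates acetate in mitochondria, was at 71.1, 95.2 and 138 CPM in the IP and 7.07, 11.9 and 19 CPM in the input (3.03 ± 0.08). Aldh1a1 was at 49.3, 117 and 276 CPM against 9.02, 18.7 and 29.6 CPM (2.87 ± 0.08) and Aldh2, the main mitochondrial acetaldehyde dehydrogenase, at 119, 167 and 243 CPM against 28.5, 38.8 and 56.8 CPM (2.10 ± 0.05). Catalase was at 118, 134 and 171 CPM in the IP and 19.8, 28.1 and 36.5 CPM in the input. None of these 4 genes overlapped between the fractions. Aldh1b1 was the exception (-1.33 ± 0.13, at 1.81 to 5.37 CPM in the IP), and the alcohol dehydrogenase genes Adh1 and Adh7 and the cytochrome gene Cyp2e1 were below the count filter, so that of the alcohol dehydrogenases listed only Adh5 (1.48) was tested.

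Thyroid hormone handling included Dio2, which activates the hormone (3.39), the carrier Slco1c1 (2.32) and Crym, which binds it (1996, 3469 and 4932 CPM in the IP, 2.59 ± 0.07). The nuclear receptor genes Thra (-0.32) and Thrb (0.13, not passing) were not enriched.

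**Figure D3:**
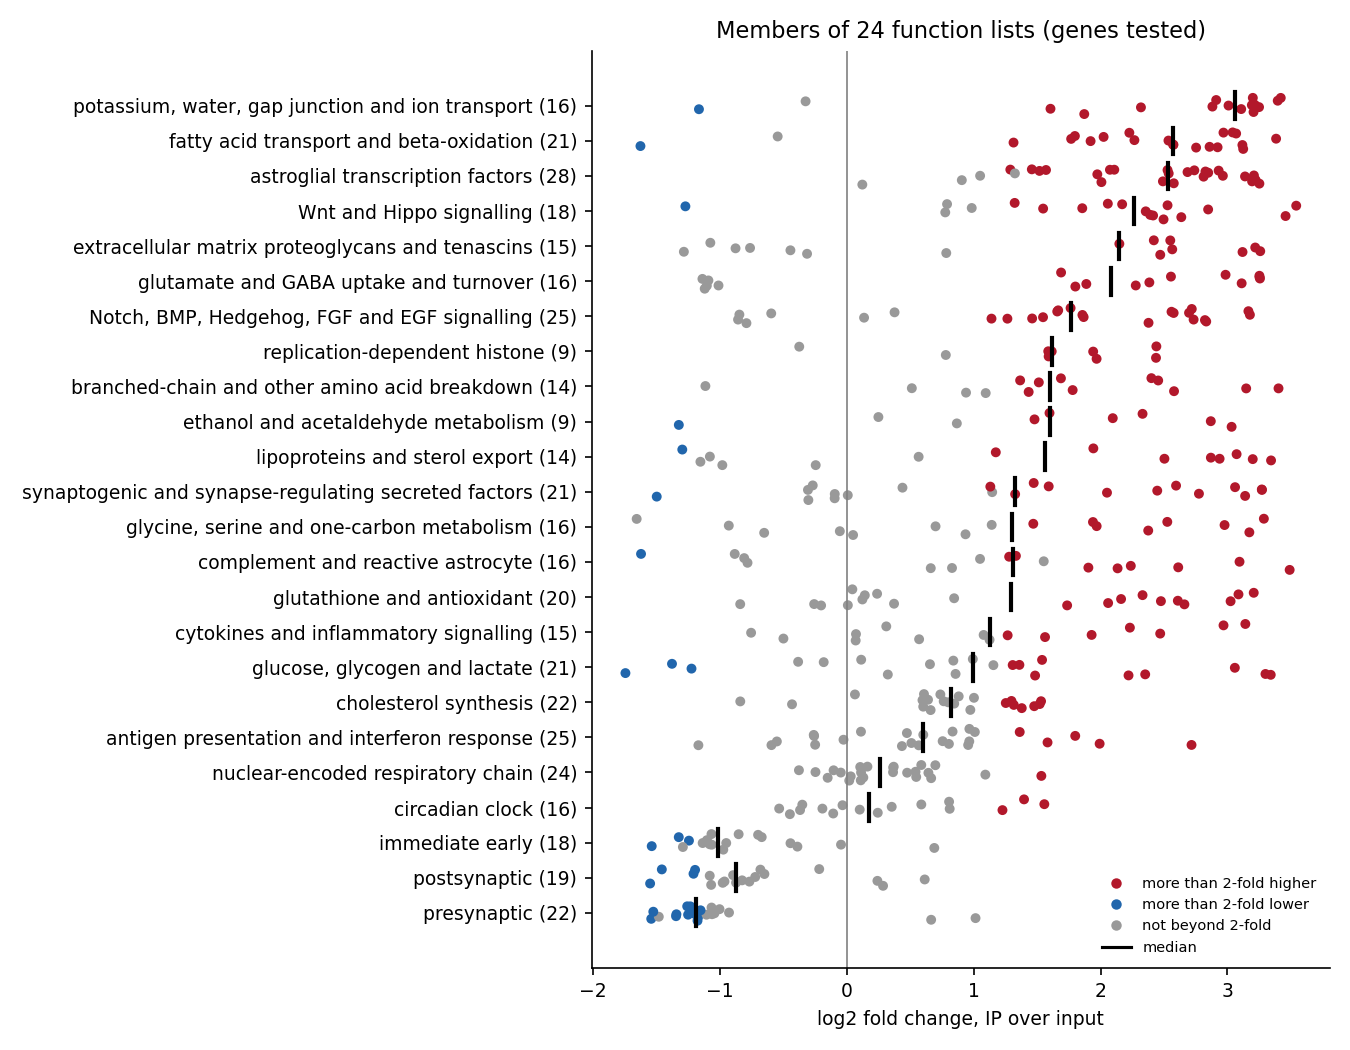
Log2 fold change of IP over input for each tested member of 24 function lists, coloured by the test against a 2-fold change, with a black bar at the list median. Ion transport, fatty acid oxidation and transcription factor lists have medians of 3.06, 2.57 and 2.53, and the presynaptic and immediate early lists of -1.19 and -1.02.

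Transcription factors of the astroglial lineage were enriched as a group: 27 of 28 were higher, 24 more than 2-fold, with a median of 2.53. Sox9 was at 492, 596 and 737 CPM in the IP and 54.8, 64.8 and 76.8 CPM in the input (3.21 ± 0.06), and Sox21 (3.25), Dbx2 (3.22), Lhx2 (3.19), Glis3 (3.14), Hes5 (2.96) and Nfia (2.54) were of similar size. Of 20 listed genes that pattern the telencephalon 12 were tested, 4 of them higher and 5 lower. These shares were near those of all tested genes (34.3% higher and 39% lower). Lhx2 (3.19) and Emx2 (2.68), which also belong to the astroglial list, were enriched. Dlx1 (-0.96), Dlx5 (-1.38) and Tbr1 (-1.35), factors of neurons, were lower.

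Receptors and effectors of developmental signals were counted in these libraries with large differences. Of 18 Wnt and Hippo genes 17 were higher, 14 more than 2-fold (median 2.26), among them the receptors Fzd10 (3.54) and Fzd2 (3.46), the ligand gene Wnt7b (2.64), and Wwtr1 (2.53) and Yap1 (2.06), which encode the coactivators TAZ and YAP. Ccn2, a target gene of that pathway, was lower (-1.27) while Ccn1 was higher (2.41). Of 25 genes of Notch, BMP, Hedgehog, FGF and EGF signalling 20 were higher (median 1.76). The Hedgehog transducer Smo was at 2.83 and Gli2 at 2.82, the receptors Fgfr3 at 3.16, Bmpr1b at 3.18, Notch1 at 2.7 and Egfr at 2.56, whereas the Hedgehog-binding inhibitor gene Hhip (-0.86) and the Notch ligand gene Dll1 (-0.60) were lower.

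Secreted and matrix genes that act on synapses were enriched in part. Of 21 tested synapse-regulating factors 14 were higher (12 more than 2-fold, median 1.33). Sparcl1, which encodes hevin, was at 4780, 5478 and 7032 CPM in the IP against 474, 596 and 735 CPM (3.27 ± 0.06), and Gpc5 (3.27), Chrdl1 (3.06) and the phagocytic receptor gene Mertk (2.77) were higher in a like manner. Thbs4, a thrombospondin, had the same large value (3.14 ± 0.24) but varied from 0 to 34.9 CPM between IP libraries. Bdnf (-0.10) and Wnt5a (-0.10) did not pass, and Sema3a was lower (-1.50). Of 15 matrix genes tested 9 were higher and 6 lower. Bcan (3.26), Sdc4 (3.22), Tnc (3.12), Hapln1 (2.56) and Ncan (2.42) were among the higher. Hapln4 (-1.29), Hapln2 (-1.08) and Tnr (-0.88) were among the lower.

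Receptors are given gene by gene. Neuronal markers had a median of -1.24, and a receptor near that value stood where neuronal transcripts stood. Among 27 glutamate and GABA receptor genes 6 were higher and 20 lower (median -1.09). The NMDA receptor subunit Grin2c was at 65.5, 109 and 139 CPM in the IP against 7.08, 12 and 13.9 CPM (3.25 ± 0.07), the GABA-A subunit Gabrg1 at 121, 138 and 181 CPM against 16.8, 27.3 and 52.6 CPM (2.39 ± 0.07), and the metabotropic receptor Grm3 at 214, 248 and 311 CPM against 55.6, 67.3 and 82.3 CPM (1.89 ± 0.05). All 3 were separated completely. The GABA-B receptor genes Gabbr2 (1.73) and Gabbr1 (0.62) and the subunit Gabrb1 (0.97) were higher as well. Grm5, the other main metabotropic receptor of the list, was lower at 93.8, 118 and 195 CPM against 215, 299 and 417 CPM (-1.25 ± 0.05). The AMPA receptor genes Gria1 (-1.09), Gria2 (-1.14), Gria3 (-1.36) and Gria4 (-1.26), the NMDA receptor genes Grin1 (-1.15), Grin2a (-1.04) and Grin2b (-0.97), and the kainate receptor genes Grik1 (-1.40) and Grik2 (-0.78) were lower, and Grin3a did not pass (0.09). The GABA-A genes Gabra2 (-0.79), Gabrg3 (-0.84), Gabra4 (-1.03) and Gabrd (-1.50) and the metabotropic receptor genes Grm7 (-1.11) and Grm2 (-1.27) were lower too.

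Of 17 monoamine and acetylcholine receptor genes 2 were higher and 13 lower (median -0.94). The noradrenaline receptor gene Adra1a was at 2.88, 6.61 and 9.44 CPM in the IP against 1.33, 2.55 and 5.2 CPM (1.30 ± 0.16, higher in 15 of 15 mice), and Adra2a was at 0.63. Adrb1 (-0.11) and Adra1b (-0.21) did not pass, while Adra2c was lower (-0.94). The dopamine receptor genes Drd1 (-1.29), Drd2 (-0.89) and Drd5 (-0.80), the serotonin receptor genes Htr1a (-1.37), Htr2a (-1.25), Htr2c (-1.16) and Htr1b (-0.94), and the muscarinic receptor genes Chrm2 (-1.44), Chrm1 (-1.42), Chrm3 (-0.97) and Chrm4 (-0.92) were lower.

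Opioid, adenosine, purine and cannabinoid receptor genes were lower in 9 of 13 cases (median -1.08). Adora2b, a low-affinity adenosine receptor, was at 20.3, 28.7 and 45.1 CPM against 1.82, 4.2 and 6.82 CPM (2.85 ± 0.11), and the ATP-gated channels P2rx7 (1.53) and P2rx4 (0.71) were higher. Adora1 did not pass (-0.08 ± 0.08), and Adora2a, the receptor of indirect-pathway neurons, was lower (-1.11). The opioid receptor genes Oprk1 (-1.48), Oprd1 (-1.36), Oprm1 (-1.35) and Oprl1 (-1.14) were lower, with Oprm1 at 0, 0.636 and 2.21 CPM in the IP. Cnr1, the cannabinoid receptor (-0.97), and P2ry1 (-1.08), P2ry14 (-1.13) and P2ry12 (-0.92) were lower.

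Of 16 peptide and lipid receptor genes 9 were higher and 6 lower (median 0.96). S1pr1, a sphingosine-1-phosphate receptor, was at 919, 1106 and 1368 CPM against 80.6, 118 and 142 CPM (3.34 ± 0.06), the orphan receptor gene Gpr37l1 at 834, 964 and 1488 CPM (3.28) and the neurotensin receptor gene Ntsr2 at 1200, 1626 and 1887 CPM (3.23). Ednrb (2.98), Ednra (2.61), Gprc5b (2.47), Adcyap1r1, the PACAP receptor gene (2.35), Ntsr1 (1.43) and Gpr37 (0.50) were the others that were higher. Ednra had a mean of only 0.906 CPM in the input. Lower were Vipr1 (-1.31), Tacr1 (-1.18), Lpar1 (-1.11), Oxtr (-0.98), Npy1r (-0.91) and Crhr1 (-0.81), and Adgrv1 did not pass (-0.34). Per kilobase of exon, Ntsr2 (510 CPM per kb in the IP), Gpr37l1 (480) and S1pr1 (372) stood above Gabbr1 (82), Grm3 (82.5) and Adora1 (13.9).

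**Figure D4:**
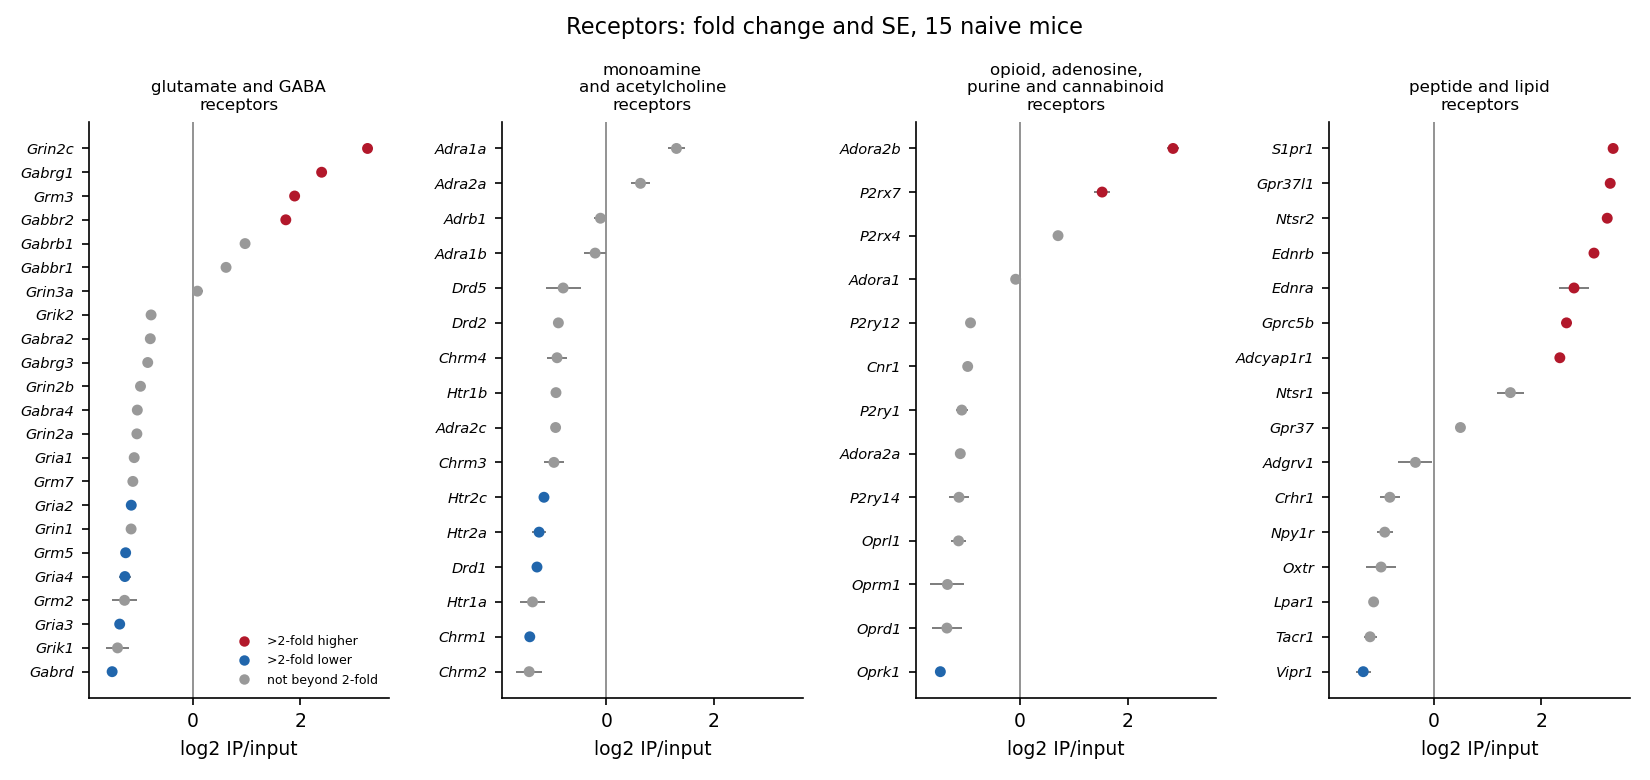
Log2 IP/input with its standard error for the receptor genes named in the text, in 4 lists, ordered within a list and coloured by the test against a 2-fold change. Grin2c, Adora2b and S1pr1 lead their lists at 3.25, 2.85 and 3.34, and the dopamine and opioid receptor genes lie between -1.48 and -0.80.

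Downstream of receptors, 7 of 23 calcium and cAMP genes were higher and 14 lower (median -0.52). The share of higher genes was near that of all tested genes (34.3%), and the share of lower genes was above that of all tested genes (39%). Those higher were led by the phospholipase gene Plcd4 (2.82) and Itpr2, the astrocyte form of the IP3 receptor (2.09), while Itpr1 (-0.95) and the ryanodine receptor gene Ryr2 (-0.96) were lower. Synaptic lists were lower almost throughout, in 20 of 22 presynaptic and 16 of 19 postsynaptic genes. Of the 2 presynaptic genes that were higher, 1 was the neurexin gene Nrxn2 (0.66), while Nrxn3 was lower (-1.25). Dlgap1 (0.61), Gphn (0.28) and Homer2 (0.24) were the postsynaptic genes that were higher, the last 2 not under scaling by library totals. Of 15 potassium channel genes of neurons 14 were lower and Kcna2 was higher (0.53).

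Immune genes were present at baseline. Of 25 tested genes of antigen presentation and the interferon response 16 were higher and 2 lower (median 0.60), with Ifit3 at 19.9, 41 and 71 CPM in the IP against 2.92, 6.36 and 11.7 CPM (2.72 ± 0.09), and Tap2 (1.99), H2-K1 (1.80) and Tap1 (1.58) more than 2-fold higher. H2 genes share near-identical sequence, so their values are uncertain. H2-T23 (-1.17) and Cd74, at 0, 1.63 and 3.06 CPM in the IP (-0.60 ± 0.21), were lower. Microglial markers, a list with a median of -1.10, were lower in the same libraries, and the cell source of the immune transcripts was not tested. Of 16 genes of complement and astrocyte reactivity 12 were higher, among them C4b (3.09), the receptor gene Osmr (2.61) and Serpina3n, at 3.54, 7.82 and 17.3 CPM (2.24 ± 0.16), and Hspb1 was lower (-1.62). Lcn2, Timp1 and Cxcl10 were below the count filter. Of 15 cytokine and inflammatory genes 11 were higher, with Tlr3, a sensor of RNA, at 3.14, Cxcl14 at 2.97 and Il18 at 2.47, and Il1b, Tnf and Ccl2 were below the filter.

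Activity-regulated genes were lower in 16 of 18 cases (median -1.02). Npas4 (-1.54), Fosb (-1.33) and Egr1 (-1.25) stood near the neuronal markers, Fos was at 3.52, 8.55 and 17.1 CPM in the IP against 6.49, 17.9 and 22.7 CPM (-0.70 ± 0.11), and Jun was higher (0.69 ± 0.09, in 14 of 15 mice). Clock genes showed a smaller median that turned sign under scaling by library totals (0.17 and -0.02), with Bhlhe40 (1.56), Hlf (1.40) and Nr1d1 (1.23) more than 2-fold higher and Npas2 lower (-0.53).

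The largest shift of any list was in mitochondrially encoded genes, all 13 of which were more than 2-fold lower (median -3.49). mt-Cytb was at 675, 1060 and 1728 CPM in the IP and 9723, 16245 and 21062 CPM in the input (-3.77 ± 0.07), and mt-Atp6 was at -4.13. These transcripts are translated inside mitochondria, by ribosomes without Rpl10a. Nuclear genes for the same respiratory complexes did not share the loss: 12 of 24 were higher and 2 lower (median 0.26), from Sdhc (1.53) to Ndufa1 (-0.38). Long noncoding RNAs were lower in 17 of 19 cases (median -0.81), with the nuclear RNA Malat1 at 191, 424 and 1248 CPM against 739, 1205 and 3619 CPM (-1.64 ± 0.10). Pantr1 was the exception at 729, 1246 and 1788 CPM against 109, 284 and 553 CPM (2.29 ± 0.08).

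Replication-dependent histone genes are known for transcripts that end without a poly(A) tail. Of the 9 listed and tested here 8 were higher (median 1.61). Hist2h2be and Hist1h2ac (both 2.44), which have near-identical relatives, led them. The histone gene Hist3h2ba, which was not in the list, was among the 12 lowest genes named above (-2.18). Of 14 proliferation and neural progenitor genes 6 were higher and 3 lower (median 0.39), where 34.3% of all tested genes were higher and 39% lower. Thbs4 and Egfr, already named, were the 2 beyond 2-fold. Top2a (0.85), Mcm2 (0.63) and Pcna (0.49) were higher, with Mcm2 of the other sign in batch K alone (-0.23), Dcx was lower (-1.29), and Mki67 (0.10), Cdk1 (0.29) and Ccnb1 (-0.49) did not pass. Cytosolic ribosomal protein genes were slightly lower, 17 of 28 in the large subunit (median -0.23) and 16 of 26 in the small subunit (median -0.24), none beyond 2-fold. This shift moved with scaling and batch. Under scaling by library totals the medians were -0.41 and -0.42. List means were -0.44 and -0.55 in batch K and -0.03 and -0.07 in batch L. Translation factors were split, from Eif4ebp1, a brake on initiation (1.97), and Eef2k (1.25) to Eef1a2, the elongation factor of neurons and muscle (-0.82).

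Enrichment was compared between the sexes, batch by fraction terms included. Of 16623 genes 0 (0%) differed by edgeR's test of the sex by fraction term, with 995 genes at an unadjusted p under 0.05, and DESeq2 called 3 (Ednra, Slc2a5 and Gm26645). Ednra, an endothelin receptor gene, had the smallest p, with mean log2 ratios of 1.42 in 8 females and 3.01 in 7 males (female minus male -2.91 ± 0.55, adjusted p = 0.15 by edgeR). Its means were 5.21 CPM in the IP and 0.906 CPM in the input. Per-mouse ratios include an added 0.5 CPM and the fitted difference does not, so these values need not match at so low a level. Slc2a5, a fructose transporter gene of microglia, had ratios of -0.44 and -1.73 (1.70 ± 0.34, adjusted p = 0.27). Within the IP, 6 of 16599 genes (0.0361%) differed by sex, all of them on the sex chromosomes: Ddx3y, Eif2s3y, Uty and Kdm5d of the Y chromosome, Xist, and Ddx3x at 149 ± 23.6 CPM (SD, n = 8) in females and 106 ± 16 CPM (SD, n = 7) in males (0.51 ± 0.08, adjusted p = 0.0053). Itih3 came next and did not pass (77.5 and 112 CPM, adjusted p = 0.18).

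Batches, which the labels name without saying what they mark, differed in enrichment for 439 genes (2.64%), and none passed when the mouse block was left out (2298 at an unadjusted p under 0.05). Batch K stood farthest from the middle batch in 338 of the 439. Vdac3, a mitochondrial channel gene, had mean log2 ratios of -0.45 in batch J, 0.41 in K and -0.15 in L (adjusted p = 0.029). Of 23 astrocyte markers 1 was called. Mean ratios of the astrocyte list were 3.12, 3.19 and 3.14 in J, K and L, while those of the small ribosomal subunit were -0.25, -0.55 and -0.07, and 6 of 54 ribosomal protein genes were called.

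The last comparison set the enrichment in the 15 naive mice against that in 29 ethanol-exposed mice (16 dependent, with 5 rounds of chronic intermittent ethanol and 2-bottle choice, and 13 non-dependent, with the drinking alone), with batch by fraction terms. The dependent mice of batches C and G, 1 in each, were left out because those batches hold no other mouse. It called 32 of 17233 genes (0.186%), 15 with a higher and 17 with a lower ratio in exposed mice. The 8 with the smallest p were all less enriched after exposure. Nnat, which encodes neuronatin, had a mean log2 ratio of 0.69 ± 0.37 (SD, n = 15) in naive mice and 0.04 ± 0.30 (SD, n = 29) in exposed mice (-0.62 ± 0.12, adjusted p = 0.012 by edgeR), with 712 and 463 CPM in the IP and 432 and 447 CPM in the input. Gabbr2, the GABA-B subunit described above, fell from 1.72 ± 0.37 to 0.82 ± 0.51 (-0.84 ± 0.16, adjusted p = 0.012 by edgeR), with 264 and 143 CPM in the IP and 79.7 and 82 CPM in the input. Slc43a2, an amino acid carrier gene, went from 0.93 to 0.18 (-0.71 ± 0.14), with 38.7 and 19.7 CPM in the IP. Pik3ip1 (-0.46), Pnrc2 (-0.48), Kbtbd11 (-0.41), Tuba1a, one of several near-identical tubulin genes (-0.37), and Syt11 (-0.32) made up the 8. Chosen after their values were seen, Crym (-0.60), Fabp5 (-0.60), Adcyap1r1 (-0.47) and Grm3 (-0.31) were further called genes of lists described above with a lower ratio, and Por was one with a higher ratio (0.43). Cd74, the invariant chain of class II antigen presentation, had the largest difference of the 32 (1.497 ± 0.353, adjusted p = 0.048 by edgeR). Its IP means were 1.66 ± 0.855 CPM (SD, n = 15) in naive, 1.35 ± 0.964 (SD, n = 13) in non-dependent and 75.9 ± 115 (SD, n = 16) in dependent mice, and its input means 2.56, 1.37 and 44.9 CPM. DESeq2 did not call it (adjusted p = 0.10). Other genes with a higher ratio were Gm26645 (1.24), Synpo2 (1.16), Cd82 (0.73) and Hddc2 (0.47). Without the mouse block 1 gene was called, with batches J and K alone 2, with non-dependent mice alone 0, and with dependent mice alone 36. No naive mouse was in batch I, and non-dependent mice were missing from batch L.

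**Figure D5:**
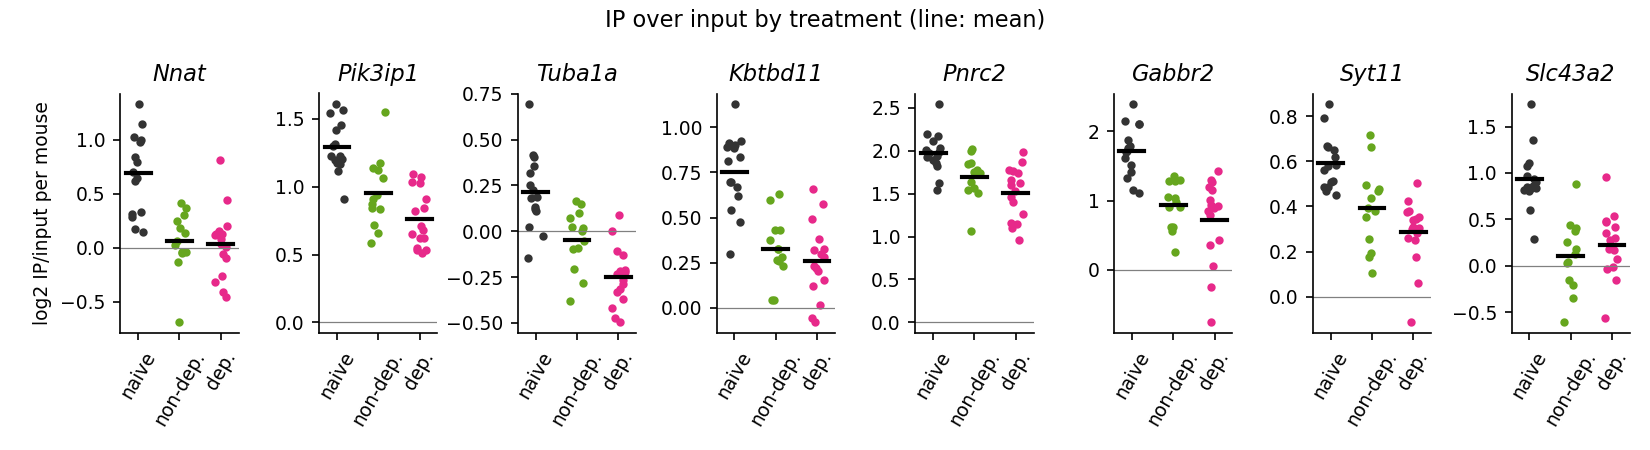
Log2 IP/input of each mouse for the 8 genes with the smallest p in the comparison of naive with exposed mice, by treatment (15 naive, 13 non-dependent, 16 dependent), with a line at the mean. Nnat has means of 0.69, 0.06 and 0.03 and Gabbr2 of 1.72, 0.94 and 0.72, and single mice overlap between treatments.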

How the data were processed

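The deposited table holds the authors' raw counts per gene for each library, with 55471 features, of which 55230 matched the gene annotation and 241 (0.0025% of counts) did not. FastQC 0.11.9, Trimmomatic 0.39 and STAR 2.7.10b with GRCm38 are named in the submitters' processing notes. The counting tool, annotation and strand setting are not given in the sources used here, so antisense, overlapping and near-identical genes are uncertain. Libraries were scaled by TMM and filtered by filterByExpr (minimum count 10), and IP was tested against input with the mouse as a block by edgeR 4.0.16 (quasi-likelihood test, Benjamini-Hochberg adjusted p of 0.05) and against a 2-fold change by glmTreat. The fits were tested on simulated data. By the labels both libraries of a mouse came from 1 animal. Their deviations correlated at 0.443 to 0.749 (median 0.595), and at 0.154 to 0.518 with batch means removed. Libraries of different mice had medians of -0.201 and -0.0114. In both versions the IP of 12 of 15 mice correlated best with its own input. Replicates are separate mice. Per-mouse ratios add 0.5 CPM.

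The members and the 55 lists (912 of 915 symbols matched, 852 tested) were chosen with earlier results of these data known. Some genes stand in several lists. Astrocyte markers such as Slc1a2, Slc1a3, Glul, Acsbg1 and Sox9 also count in function lists, which are therefore not independent of the marker list. Genes named were the 4 markers, the 12 most and 12 least enriched nuclear protein-coding genes that passed beyond 2-fold in all 15 mice with at least 10 CPM, the 15 nuclear genes highest per kilobase, list members by smallest p or against their list, receptors, and up to 8 per difference test. Other list members were named for their known role, with their values in view. Alternatives were no mouse block, other scalings, no filter, DESeq2 1.42.0, single batches or sexes, and subsets of exposed mice. Some genes that met these rules are not reported here.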

Additional observations from a re-analysis of the deposited data

Results flagged for a closer look

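For 18 named genes the enrichment differed between naive and ethanol-exposed mice by a test of the difference itself. The exposed minus naive log2 values were -0.62 for Nnat, -0.84 for Gabbr2, -0.71 for Slc43a2, -0.46 for Pik3ip1, -0.48 for Pnrc2, -0.41 for Kbtbd11, -0.37 for Tuba1a and -0.32 for Syt11. Crym (-0.60), Fabp5 (-0.60), Adcyap1r1 (-0.47) and Grm3 (-0.31) were lower in exposed mice as well. Higher were Cd74 (1.497), Gm26645 (1.24), Synpo2 (1.16), Cd82 (0.73), Hddc2 (0.47) and Por (0.43). Each was called over 17233 genes, and without the replicate block Gabbr2 alone was called. With non-dependent mice alone against naive mice all 18 lost the call, in batches J and K alone 17 did, and without the count filter 8. With dependent mice alone against naive mice 14 of the 18 kept it.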

How the results depend on the processing

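Of the counts of called genes, that of IP against input in total and that beyond 2-fold in total stayed within 1.5 times under every alternative run. The lower side did not: in batch J alone 3931 genes were lower and 539 more than 2-fold lower, in batch K alone 4197 and 586, where 4 mice entered each fit, and scaling by library totals gave 1876 more than 2-fold lower. Fits without the replicate block, which pairs the libraries of a mouse, called 0 genes for batch and 1 for exposure. The batch count was 861 with library totals, 113 without the count filter and 1376 by DESeq2. The exposure count was 16 without the count filter, 78 by DESeq2, 0 with non-dependent mice alone and 2 in batches J and K. DESeq2 called 3 genes for sex in the ratio and 10 within the IP. The cause of these changes was not tested. Of 302 genes named for IP against input, 53 changed call or sign under at least 1 alternative, and the remaining genes of this contrast kept both. Values of genes whose sign turned, most of which did not pass in the first place, were these. By DESeq2, the sign turned for Cspg4 at -0.011, Sod1 at -0.015, Bdnf at 0.20 and Mki67 at -0.20. With DESeq2 size factors in edgeR, the sign turned for Cspg4 at -0.014 and Sod1 at -0.017. In batch J alone, the sign turned for Bdnf at 0.80, Wnt5a at 0.33 and Adrb1 at 0.33. In batch K alone, the sign turned for Rpl10a at -0.14, Cspg4 at -0.21, Cox6b1 at -0.0872, Sod1 at -0.37, Adora1 at 0.21, Mki67 at -0.63, Cdk1 at -0.29, Tmem212 at -0.50 and Mcm2 at -0.23. In batch L alone, the sign turned for Mrc1 at 0.30, Cspg4 at -0.0495 and Adgrv1 at 0.20. In females, the sign turned for Cspg4 at -0.055, Bdnf at 0.12, Adrb1 at 0.032 and Adra1b at 0.15. With library totals, the sign turned for Cspg4 at -0.19, Sod1 at -0.17, Thrb at -0.052, Grin3a at -0.10 and Mki67 at -0.11. In males, the sign turned for Sod1 at -0.027, Wnt5a at 0.0299, Grin3a at -0.25 and Mki67 at -0.00441. Without the replicate block, the sign turned for Sod1 at -8.46e-05. With a separate dispersion estimate, the sign turned for Bdnf at 0.16 and Mki67 at -0.15. Without batch J, the sign turned for Cspg4 at -0.11, Sod1 at -0.0202 and Mki67 at -0.10. Without batch K, the sign turned for Adrb1 at 0.022 and Adgrv1 at 0.054. Without batch L, the sign turned for Rpl10a at -0.026, Sod1 at -0.15, Bdnf at 0.30, Wnt5a at 0.035 and Adora1 at 0.0051. For Ccdc153 it turned in batch J alone (0.14), batch L alone (0.21), females (0.013), without mitochondrially encoded genes (0.0045), without the count filter (0.023), without the replicate block (0.0065) and without batch K (0.19). Depth limits transcripts near 1 CPM, such as Oprm1 and Cd74, for which single libraries held no count.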

Other observations

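Grouped by gene family, shares of enriched genes in the naive IP were counted. Of 16 tested aldehyde dehydrogenase (Aldh) genes 12 were higher, 10 of them more than 2-fold, with a median log2 fold change of 1.89, and of 17 glutathione S-transferase (Gst) genes 11 were higher (median 1.22). Of 72 potassium channel (Kcn) genes 54 were lower and 13 higher (median -0.87). Over all tested genes 34.3% were higher and 39% lower, and the solute carriers (Slc, 41.7% higher and 44% lower of 259) were near those shares. Of 343 zinc finger (Zfp) genes 19.8% were higher and 37.3% lower. These families were chosen after the values were seen.

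By class of transcript, 36.9% of 13508 protein-coding genes were higher and 39.8% lower. Among 499 long intergenic noncoding RNAs 26.4% were higher and 48.5% lower (median -0.47), and among 393 unconfirmed transcript models 9.16% were higher and 60.3% lower (median -0.84). Of 4 equal groups of protein-coding genes by exon length, the shortest had a median of 0.0073 and the longest of -0.11.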
